A study of Homo sapiens with 12 samples.

Results

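Of 18417 genes measured, 10 were chosen by large log2 differences between induced and uninduced arrays of HBL-1: MPZL2, MYO1E, CYTH4, CYTIP, SMARCA1, CD36, JAML, SQOR, PIEZO2 and NLRP11. HBL-1 is a cell line of diffuse large B-cell lymphoma of the activated B-cell-like type, and U-H01 is a Hodgkin lymphoma cell line. Both had been transduced with short hairpins against RelB or cRel, subunits of the transcription factor NF-kB, and the hairpin is expressed when doxycycline is given. The study asked how loss of single NF-kB subunits changes expression in these lymphomas. The arrays were 2 uninduced and 2 induced of HBL-1 (population C), and 4 uninduced and 4 labelled induced of U-H01 (populations B1 and B2, with 2 time points each). The numbers 1 and 2 in the sample titles were read as the 2 time points, which only the treatment labels of HBL-1 spell out as days. In HBL-1 each time point gave 1 uninduced and 1 induced array.

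Uninduced cells carried the hairpin vector too, and cells given doxycycline without a hairpin against a subunit were not analysed here, so doxycycline and the hairpin cannot be told apart. The letters B and C are not spelled out as hairpins in the labels. REL, the gene of cRel, was 9.70 and 9.78 on the uninduced HBL-1 arrays and 9.13 and 9.37 on the induced ones, a log2 difference of -0.49 ± 0.12 (SE of the fit) with an adjusted p of 0.121 from limma. RELB was 7.67 and 7.67 without and 7.57 and 7.40 with induction, and its difference did not pass either (-0.19 ± 0.12, adjusted p = 0.744). In U-H01 neither gene passed as lower in the arrays labelled induced (REL 0.20 ± 0.09, RELB -0.15 ± 0.09). A lower level of either gene thus passed in neither line, and in HBL-1 too the word induced rests on the labels. The word labelled is kept for U-H01, whose groups also differed in their whole profile.

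The U-H01 arrays labelled induced stood apart from the uninduced ones in their whole profile. Arrays of 1 group correlated at 0.991 to 0.996 over all probe sets with 1 symbol, but the 2 U-H01 groups correlated with each other at only 0.893 to 0.910, and the labelled induced arrays correlated with uninduced HBL-1 arrays at 0.906 to 0.917. Whether both U-H01 groups hold the same cells was not settled here, so their values are given separately and a difference between them is one between arrays of these labels. The mean of 6 B-cell markers (of 7 listed) was 6.18 to 6.44 on uninduced U-H01 arrays, 8.08 to 8.38 on those labelled induced and 10.2 to 10.3 on HBL-1 arrays. Between the U-H01 groups 3 of the 6 were higher with the label (CD79A by 5.31, CD22 by 4.11 and PAX5 by 2.76), BLK was lower (-0.79), and MS4A1 (4.49 and 4.52) and CD79B (6.32 and 6.27) did not pass. Of 6 Hodgkin markers, 2 were higher with the label, TNFRSF8 (CD30, by 4.70) and IRF4 (by 0.75), and 3 were lower, among them FSCN1 (-1.84) and CCL22 (-1.75). All 6 exceeded the array median in uninduced U-H01 and in both HBL-1 groups, and 5 in the arrays labelled induced, so this cut did not separate the lines. TNFRSF8 averaged 6.89 in uninduced U-H01, near its 6.63 in both HBL-1 groups, and 11.6 with the label. FSCN1 went the other way, at 8.75 in uninduced U-H01, 6.91 with the label and 6.85 and 6.91 in uninduced and induced HBL-1. T and NK cell markers averaged 4.65 to 4.88 over all arrays, with 1 of 9, NKG7, above the array median in every group. With the label NKG7 (0.62 ± 0.14, adjusted p = 0.00238) and CD2 (0.36 ± 0.10, adjusted p = 0.00769) were higher, and 7 did not pass. Myeloid and platelet markers averaged 4.41 to 4.66, with 0 of 10 above the median in any group. Stromal, endothelial and epithelial markers averaged 5.58 to 6.03. Between the U-H01 groups 2 of the 10 were higher with the label, 2 lower and 6 not called, beside 22.4% and 23.5% of all genes called higher and lower. PECAM1 differed by -5.60 and CDH1 by 2.32, while KRT8, an epithelial marker like CDH1, was 6.86 without and 6.32 with the label. The part of these differences in the results for the 10 genes was not tested.

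The 10 genes act at the cell surface, beneath it, in the nucleus and in mitochondria. MPZL2 and JAML are adhesion molecules with immunoglobulin-like domains, and JAML binds CXADR on neighbouring cells. MYO1E is a class I myosin that links membranes to actin. CYTH4 is a cytohesin, an exchange factor that loads ARF GTPases, and CYTIP binds cytohesins and restrains the adhesion they promote through integrins. SMARCA1 is an ATPase of ISWI chromatin remodelling complexes. CD36 is a scavenger receptor that takes up fatty acids, and SQOR oxidises hydrogen sulfide at the inner mitochondrial membrane. PIEZO2 is an ion channel opened by mechanical force, and NLRP11 belongs to the NLR family of cytoplasmic innate immune proteins. NF-kB subunits bind DNA at kB sites, in promoters and in more distant elements.

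The RefSeq promoter table (build GRCh38.p14, 250 bases before to 50 bases after a start site) held 14 records for 8 of the 10 genes; MPZL2 and CYTH4 had none. Those of PIEZO2, JAML, CYTIP and NLRP11 are shown, because PIEZO2 was the only one of the 8 with a kB match, JAML and CYTIP were higher and NLRP11 lower in induced HBL-1. Capitals mark matches to the kB consensus, the AP-1 site TGANTCA, the core of the interferon-stimulated element (a GAAA repeat with a gap of any 2 bases) and the PU.1 box GAGGAA, on either strand.
PIEZO2, chr18:11149520-11149819, minus strand: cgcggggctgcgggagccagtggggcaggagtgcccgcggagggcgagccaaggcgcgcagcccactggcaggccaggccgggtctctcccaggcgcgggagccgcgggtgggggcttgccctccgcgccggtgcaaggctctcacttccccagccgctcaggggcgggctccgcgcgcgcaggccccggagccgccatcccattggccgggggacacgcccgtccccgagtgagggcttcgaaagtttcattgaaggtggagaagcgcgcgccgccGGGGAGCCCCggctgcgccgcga
JAML, chr11:118212897-118213196, minus strand: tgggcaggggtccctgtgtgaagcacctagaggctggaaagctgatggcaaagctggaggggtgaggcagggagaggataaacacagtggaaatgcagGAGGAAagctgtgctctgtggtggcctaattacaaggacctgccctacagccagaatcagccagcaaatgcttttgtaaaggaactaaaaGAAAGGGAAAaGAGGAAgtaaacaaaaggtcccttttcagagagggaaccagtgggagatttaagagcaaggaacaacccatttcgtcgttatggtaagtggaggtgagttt
CYTIP, chr2:157444040-157444339, minus strand: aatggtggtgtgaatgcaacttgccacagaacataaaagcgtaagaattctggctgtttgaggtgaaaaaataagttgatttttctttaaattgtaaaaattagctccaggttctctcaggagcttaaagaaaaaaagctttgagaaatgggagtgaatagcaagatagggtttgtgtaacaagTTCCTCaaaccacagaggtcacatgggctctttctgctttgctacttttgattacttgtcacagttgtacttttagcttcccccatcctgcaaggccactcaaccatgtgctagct
NLRP11, chr19:55836526-55836825, minus strand: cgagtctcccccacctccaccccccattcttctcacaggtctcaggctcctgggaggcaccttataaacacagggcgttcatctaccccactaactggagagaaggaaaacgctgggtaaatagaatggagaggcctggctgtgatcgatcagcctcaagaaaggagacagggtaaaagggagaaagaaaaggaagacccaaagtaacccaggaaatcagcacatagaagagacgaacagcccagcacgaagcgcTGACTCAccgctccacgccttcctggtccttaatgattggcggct

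Counting from the start site, PIEZO2 had 1 kB match at bases 28 to 37, GGGGAGCCCC, which reads as a match on both strands. It was the only kB match, in 1 of the 14 records, against 11.3% of all 35116 promoter records. JAML held the element core at -62 to -53 and PU.1 boxes at -152 to -147 and -51 to -46, and CYTIP had a PU.1 box, on the minus strand, at -66 to -61. NLRP11 had an AP-1 site at bases 6 to 12. A PU.1 box was in 7 of the 14 records, of 4 genes (JAML, CYTIP, CD36 and SMARCA1), and in 27.9% of all records. The 14 are not independent, since CD36 has 6 and NLRP11 has 2. Some CD36 records overlap, and the same PU.1 box is counted in 2 of them. An AP-1 site was in 2 of 14 (NLRP11 and CD36) and in 7.71% of all, and the element core in 1 of 14 and in 3.57%. A TATA box TATAAA was in 3 of 14 (CD36 and NLRP11) and in 11.5%, while the E-box CACGTG and the octamer ATGCAAAT were in 0 of the 14 records and in 7.26% and 1.77% of all. No 2 of the matches shown overlapped. These matches describe letters in a window and no site was measured.

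The adhesion genes were both higher on induced HBL-1 arrays. MPZL2 was 5.42 and 5.08 on the uninduced arrays of time points 1 and 2 and 6.75 and 7.54 on the induced ones. The difference was 1.33 at the first and 2.45 at the second. Its uninduced levels lay under the array medians (5.79 to 5.88), so no fold is given. JAML was 6.91 and 6.94 without and 8.08 and 8.33 with induction, differences of 1.17 and 1.39. Both genes were lower in U-H01 than on any HBL-1 array. MPZL2 lay between 4.27 and 4.47 on uninduced U-H01 arrays and between 4.32 and 4.59 on those labelled induced, which overlap and are close to the lower quartile of the arrays (4.18 to 4.28). JAML lay between 4.76 and 5.18 without and between 4.40 and 4.74 with the label, and these ranges do not overlap. In these bulk samples, more RNA per cell and more cells with the RNA cannot be told apart.

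The genes of the cell cortex were higher as well. MYO1E was 6.03 and 6.18 on uninduced and 7.82 and 8.04 on induced HBL-1 arrays, differences of 1.78 and 1.85. CYTH4 was 6.38 and 6.40 without and 7.90 and 8.24 with induction, differences of 1.52 and 1.84. CYTIP, whose protein binds cytohesins, was 6.0 on both uninduced arrays and 7.34 and 7.80 on the induced ones, differences of 1.34 and 1.81. In U-H01 these 3 genes differed from one another. MYO1E lay between 4.69 and 4.93 on uninduced arrays and between 4.87 and 5.44 on those labelled induced, and CYTH4 between 5.06 and 5.24 and between 4.98 and 5.24, so that both overlapped between the U-H01 groups and stayed under the HBL-1 arrays. CYTIP was 4.44, 4.62, 4.39 and 4.77 on uninduced U-H01 arrays and 8.69, 8.63, 8.65 and 8.81 on those labelled induced. Its levels thus lay below all HBL-1 arrays in one U-H01 group and above them in the other.

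The remaining genes with higher levels act in the nucleus, at the surface and in mitochondria. SMARCA1, the ISWI ATPase, was 5.37 and 5.43 on uninduced and 6.71 and 7.30 on induced HBL-1 arrays, differences of 1.35 and 1.87. CD36 was 7.34 and 7.68 without and 8.53 and 9.06 with induction, differences of 1.19 and 1.38. SQOR was 6.51 and 6.37 without and 7.67 and 7.68 with induction, differences of 1.17 and 1.31. SMARCA1 and CD36 were near the bottom of the scale in U-H01, where SMARCA1 lay between 3.94 and 4.19 and CD36 between 3.35 and 3.55 over the 8 arrays. SQOR was the exception. Its 8 U-H01 levels, 6.43 to 6.97, overlapped or exceeded the uninduced HBL-1 levels and lay below the induced ones. CD36 is also a marker of monocytes and platelets, whose other markers averaged 4.56 to 4.65 on uninduced and 4.58 to 4.66 on induced HBL-1 arrays.

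The last pair was lower after induction. PIEZO2, the mechanosensitive channel, was 8.53 and 8.70 on uninduced and 6.85 and 6.93 on induced HBL-1 arrays, differences of -1.68 and -1.77. NLRP11 was 7.19 and 7.14 without and 5.57 and 5.69 with induction, differences of -1.62 and -1.46. PIEZO2 was 9.91, 9.77, 9.50 and 9.36 on the uninduced U-H01 arrays, above all HBL-1 arrays, and 4.90, 4.75, 4.76 and 5.29 on those labelled induced, below them. NLRP11 lay between 4.25 and 4.76 and between 3.84 and 4.31 in the 2 U-H01 groups, below all HBL-1 arrays. PIEZO2 had 3 probe sets, and the other 2 gave HBL-1 differences of -1.52 and -1.63 beside -1.72 for the one used here, and U-H01 differences of -4.24 and -3.76 beside -4.71.

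**Figure D1:**
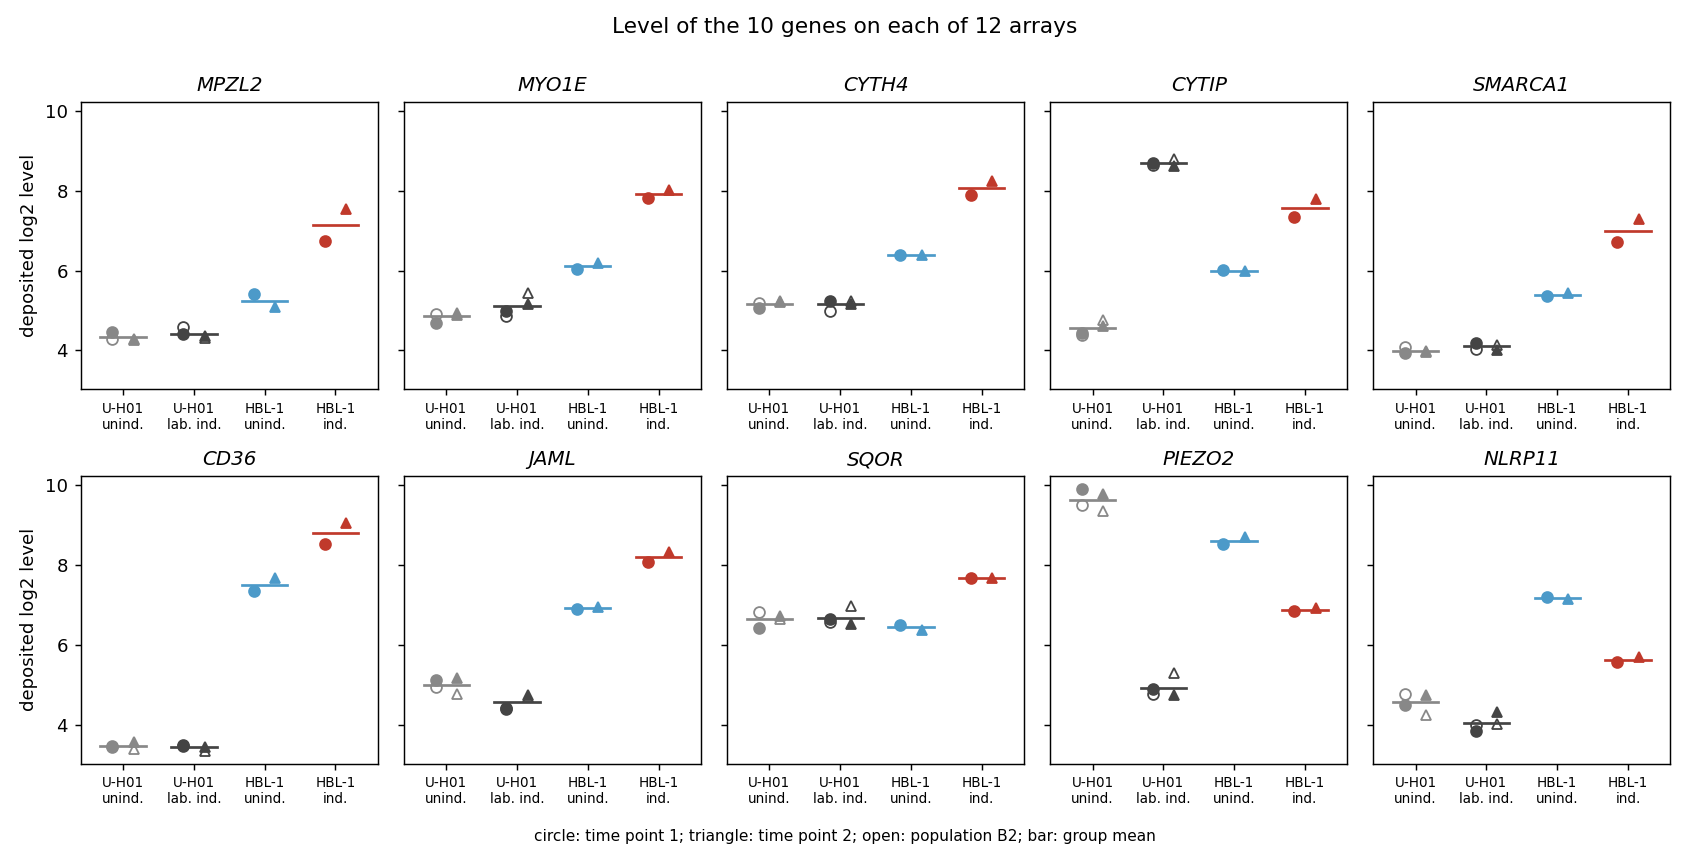
Deposited log2 level of each gene (vertical axis) on each of the 12 arrays, in 4 groups along the horizontal axis. Circles are time point 1, triangles time point 2, open symbols population B2, and bars group means. In the panels 8 genes are higher and PIEZO2 and NLRP11 lower on induced than on uninduced HBL-1 arrays, and CYTIP and PIEZO2 differ most between the U-H01 groups.

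These HBL-1 differences chose the genes, so they are a description with no test. Fitted over both time points, the 8 higher genes differed by a median of 1.59, from 1.24 ± 0.15 (2.36-fold) for SQOR to 1.89 ± 0.20 for MPZL2. PIEZO2 differed by -1.72 ± 0.20 (3.31-fold lower) and NLRP11 by -1.54 ± 0.18. MPZL2 without and NLRP11 with induction lay under the array medians (5.79 to 5.88), so no fold is given for them. SMARCA1 without induction lay under these medians too. Background may limit the sizes of these differences. The SE draw on the arrays of both lines, and HBL-1 gives 1 of the 5 residual degrees of freedom. They therefore do not measure the spread between the HBL-1 pairs, which for MPZL2 gave 1.33 and 2.45. In all 10 genes the induced and uninduced arrays did not overlap, as they did not in 41.3% of all genes. All 10 exceeded a difference of 1 in size, against 0.217% of all genes. Called at an adjusted p under 0.05 over all genes were 0.608% of them, 0.418% as higher and 0.19% as lower. By size of the fitted difference the genes ranked between 2 and 18 of 18417, with IDO1 first (-1.99). Genes outside the set ranked between them, among others DDIT4 at 6 (1.66), EGR1 at 8 (-1.58) and H2BC12 at 11 (-1.45), so the set is not the top of the ranking. SQOR, the last of the 10, ranked 18 with 1.24, and TGFBR3, next in rank, had a difference of -1.18.

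The difference was larger at the second time point in 9 of the 10 genes, NLRP11 being the exception. MPZL2 had the widest gap between time points, 1.12 log2, followed by SMARCA1 at 0.52 and CYTIP at 0.47. MYO1E and PIEZO2 had the smallest gaps, 0.07 and -0.09. Of the other 30 genes with fitted differences over 1 in size, 20 were also farther from 0 at the second time point, as were 51.1% of all genes. With 1 pair per time point, and genes chosen by these differences, this pattern carries no test.

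On the induced arrays alone, time point 2 minus time point 1 ran from 0.0051 for SQOR, hardly a difference, to 0.79 for MPZL2. On the uninduced arrays it ran from -0.33 (MPZL2) to 0.34 (CD36). Both ranges compare single arrays that also entered the choice of genes, and carry no test. MPZL2 differed in opposite directions on its 2 kinds of array, while CD36 was higher at time point 2 on both. The mean of both kinds differed between time points by 0.43 ± 0.11 for CD36 and 0.33 ± 0.13 for SMARCA1, and neither passed (adjusted p = 0.995 and 0.999). Of all genes 0% were called for this comparison, and limma called 0 of the 10, with 2 at an unadjusted p under 0.05 among the 10 and 787 (4.27%) among all genes. The other 8 differences ran from -0.07 for SQOR to 0.23 for MPZL2, whose 95% interval was -0.20 to 0.66. That interval draws on the arrays of both lines, and the values of MPZL2 on uninduced (-0.33) and induced (0.79) HBL-1 arrays both lay outside it.

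**Figure D2:**
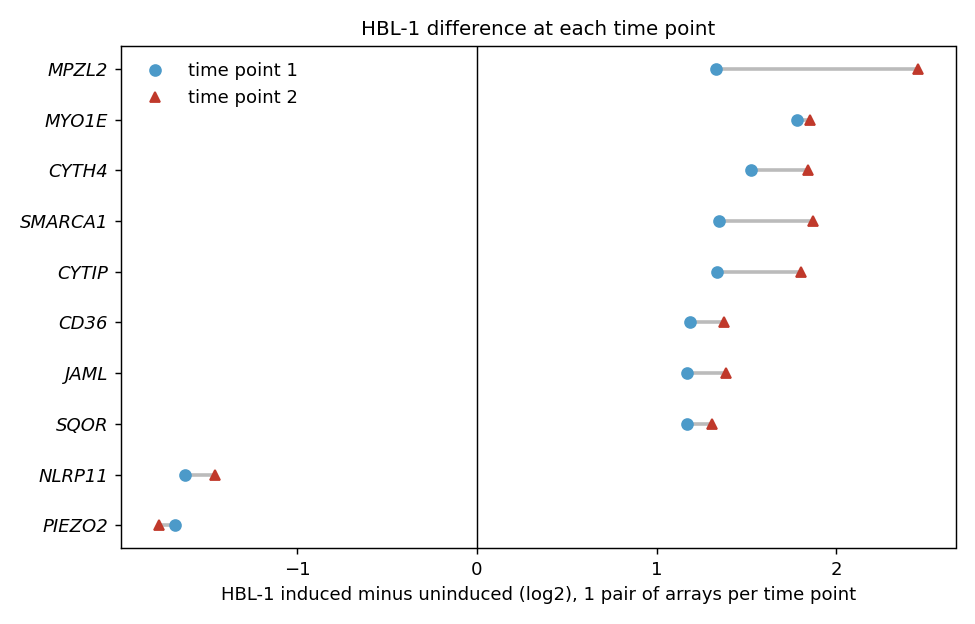
Induced minus uninduced log2 level in HBL-1 (horizontal axis) for each gene, with 1 pair of arrays at time point 1 (circles) and 1 at time point 2 (triangles). The symbols of time point 2 lie farther from 0 in 9 of 10 genes, and the gap is widest for MPZL2, from 1.33 to 2.45.

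The U-H01 arrays did not enter the HBL-1 difference that chose the genes, though they shared its spread and the choice of probe sets. Between the U-H01 groups limma called 5 of the 10 genes. With the label, 2 were higher and 3 lower. CYTIP was higher by 4.14 ± 0.10 (4 arrays a side, adjusted p = 3.0e-12). Its uninduced levels of 4.39 to 4.77 lay near the lower quartile of the arrays, so no fold is given. PIEZO2 was lower, at -4.71 ± 0.14 (adjusted p = 2.9e-11), and its other probe sets gave -4.24 and -3.76. Its labelled induced levels of 4.75 to 5.29 lay under the array medians (5.79 to 5.88), so no fold is given for it either. NLRP11 (-0.53 ± 0.13, adjusted p = 0.00436) and JAML (-0.44 ± 0.10, adjusted p = 0.00330) were lower and MYO1E higher (0.26 ± 0.09, adjusted p = 0.0354). With the label NLRP11 averaged 4.04, under the lower quartile of the arrays, and JAML (4.40 to 4.74) lay near it. Background may therefore limit the sizes of both differences. These 5 of 10 stand against 45.8% of all genes that passed, so the share is near the background. The arrays of both groups did not overlap for 3 of the 10 (CYTIP, JAML and PIEZO2), against 41.1% of all genes. CYTIP, MYO1E, PIEZO2 and NLRP11 had the sign of their HBL-1 difference and JAML the opposite one. JAML, CYTIP, PIEZO2 and NLRP11 moved the same way in all 4 pairs, though JAML by only -0.07 in the pair of B2 at time point 2. MYO1E did so in 3 of 4, with -0.03 in the pair of B2 at time point 1. The shares of all genes with 1 sign in all 4 pairs, or with the same sign in both lines, were not counted. Both statements are thus descriptions. The MYO1E call is fragile: of 12 fits that each dropped 1 array, 10 lost it, with an adjusted p of up to 0.137 without labelled induced replicate 4. It was kept only without replicate 3 of either U-H01 group. The fits that dropped an HBL-1 array all repeat the fit with U-H01 arrays only, so they count as 1 result.

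The other 5 genes did not pass between the U-H01 groups. MPZL2 differed by 0.10 with a 95% interval of -0.21 to 0.40, SMARCA1 by 0.10 (-0.10 to 0.31) and SQOR by 0.03 (-0.20 to 0.25). CYTH4 differed by -0.02 (-0.21 to 0.18) and CD36 by -0.02 (-0.19 to 0.14). MPZL2, SMARCA1 and CD36 had levels in U-H01 near or under the array lower quartile, where a change can be hidden by background, while CYTH4 and SQOR lay above it.

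Of the large differences, that of CYTIP was alike in size in B1 and B2, and that of PIEZO2 less so. CYTIP differed by 4.13 ± 0.14 in B1 and by 4.15 ± 0.14 in B2. PIEZO2 differed by -5.02 ± 0.16 in B1 and by -4.41 ± 0.16 in B2, a gap of 0.61 ± 0.22 between populations that did not pass (adjusted p = 0.294). It passed without labelled induced replicate 3 (0.94, adjusted p = 0.0391). Of the 10 genes limma called 0 for the gap between populations, with 1 (PIEZO2) at an unadjusted p under 0.05, as 11.5% of all genes had, beside 0.608% of all genes called, 0.38% as higher in B2. The intervals of the other 9 gaps all included 0, and the widest ran from -0.46 to 0.76 for MPZL2.

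Against HBL-1, all 10 genes passed in uninduced U-H01, 9 lower and 1 higher. The mean of the 4 HBL-1 arrays was used, with induced and uninduced in equal parts. A gene that differs widely within HBL-1 has to be above background on some HBL-1 arrays, so this count and the next lean on the choice of the genes. CD36 was lower (-4.69 ± 0.08 on the deposited values, adjusted p = 2.5e-13), but its U-H01 levels lay under the lower quartile of the arrays, which sets the size of that difference. JAML was at -2.56 ± 0.10 and CYTIP at -2.23 ± 0.10. SMARCA1 at -2.20, MYO1E at -2.16, CYTH4 at -2.06, MPZL2 at -1.87 and NLRP11 at -1.83 came next. In uninduced U-H01, SMARCA1 (3.94 to 4.09) also lay under the lower quartile, and CYTIP, MPZL2 and NLRP11 lay near it. Background may therefore limit the sizes of these differences too. SQOR was lower by the least, -0.40 ± 0.10 (adjusted p = 0.00581), and its U-H01 mean of 6.66 was between the uninduced (6.44) and the induced (7.68) mean of HBL-1. PIEZO2 alone was higher, by 1.89 ± 0.14. Of all genes 47.5% were called here, 24.3% as lower. For 9 genes, all but SQOR, the 4 U-H01 arrays did not overlap the 4 HBL-1 arrays, against 44.9% of all genes.

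The arrays of U-H01 labelled induced gave the same count, 9 lower and 1 higher, beside 42.7% of all genes called, 23% as lower and 19.7% as higher, but with CYTIP and PIEZO2 exchanged. Both comparisons share the HBL-1 arrays. Again 9 genes, all but SQOR, did not overlap, against 39.7% of all genes. CYTIP was 1.91 ± 0.10 above the HBL-1 mean (adjusted p = 4.6e-09) and PIEZO2 was at -2.82 ± 0.14. JAML was at -3.00, with labelled induced levels (4.40 to 4.74) near the lower quartile of the arrays. CD36, again under that quartile in U-H01, was at -4.72 ± 0.08. SQOR, at -0.37 ± 0.10 (adjusted p = 0.0100), lost its call without HBL-1 induced replicate 2 or uninduced replicate 1 (adjusted p = 0.0717 in both).

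**Figure D3:**
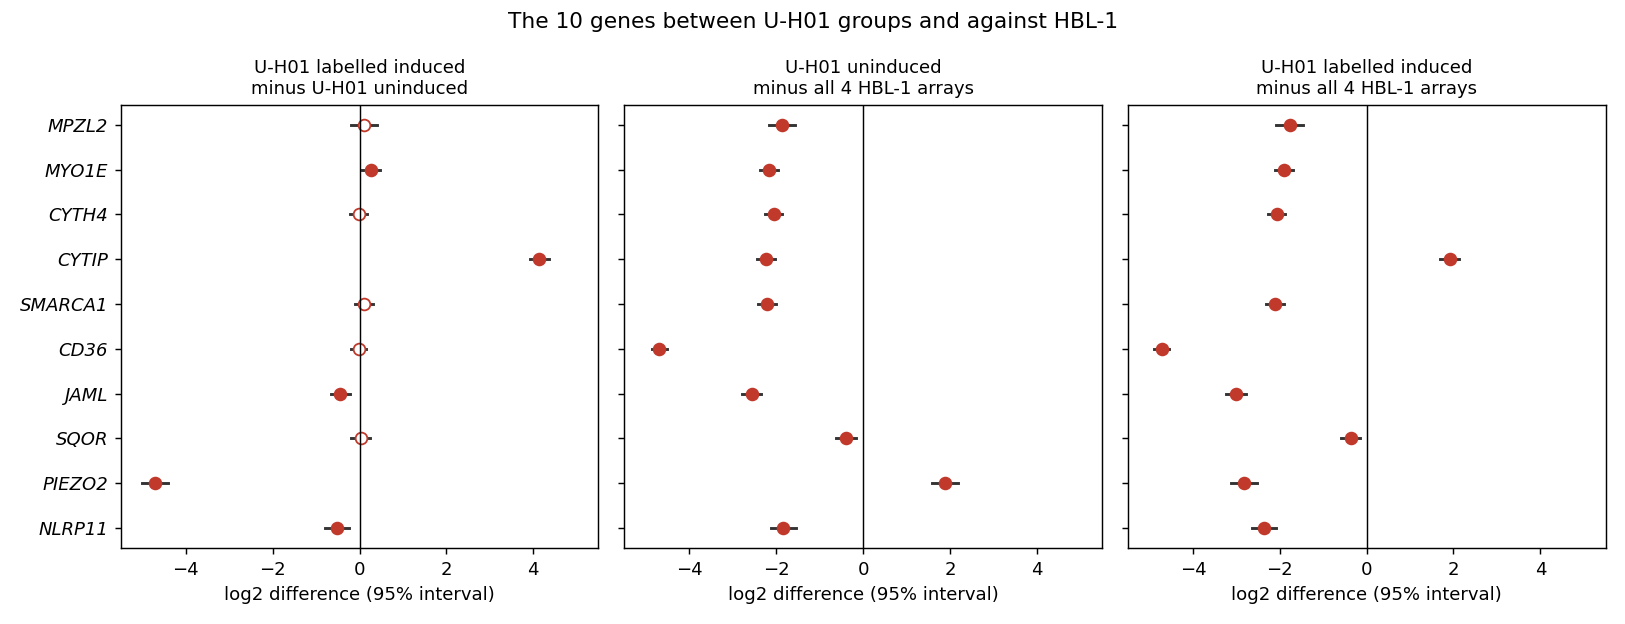
Log2 difference (horizontal axis, points) with its 95% interval (lines) for the 10 genes in 3 comparisons. Filled points passed an adjusted p under 0.05. The left panel shows CYTIP at 4.14 and PIEZO2 at -4.71 far from the other 8 genes, and the other panels show both genes changing sides against HBL-1.

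For NLRP11 the order was labelled induced U-H01 (4.04 ± 0.20, SD, n = 4), uninduced U-H01 (4.57 ± 0.24, n = 4), induced HBL-1 (5.63 ± 0.08, n = 2) and uninduced HBL-1 (7.17 ± 0.03, n = 2), with overlap between the first neighbours only.

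Close relatives and partners of the genes were measured in 9 lists, with 66 genes beside the 10. None passed in HBL-1: limma called 0 of 66, with 8 at an unadjusted p under 0.05, beside 0.608% of all genes called and 9.81% at an unadjusted p under 0.05, so both counts are near the background. The largest difference among them was that of PIEZO1, the other PIEZO channel, at -0.58 ± 0.15 (adjusted p = 0.145). CXADR, which JAML binds, was at 0.49 ± 0.13 (adjusted p = 0.165) and MPZL3, the relative of MPZL2, at 0.43 ± 0.19 (adjusted p = 0.490). Among ISWI genes BAZ2A was at 0.44 ± 0.11 (adjusted p = 0.107) and the median of 13 was -0.03. The 8 other genes of the cytohesin list, which holds ARF GTPases and the integrin chain ITGB2, had a median of 0.01, led by ARF6 at -0.31 ± 0.12. The 6 other class I myosins had a median of -0.13, the 9 fatty acid genes of 0.07, the 5 sulfide genes of -0.08 the 6 mechanosensitive channels of -0.02, the 5 junctional genes of 0.21 and the 13 NLRP genes and partners of -0.10, beside -0.01 over all genes. Between the U-H01 groups 16 of the 66 were called higher with the label and 16 lower, where 22.4% and 23.5% of all genes were.

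**Figure D4:**
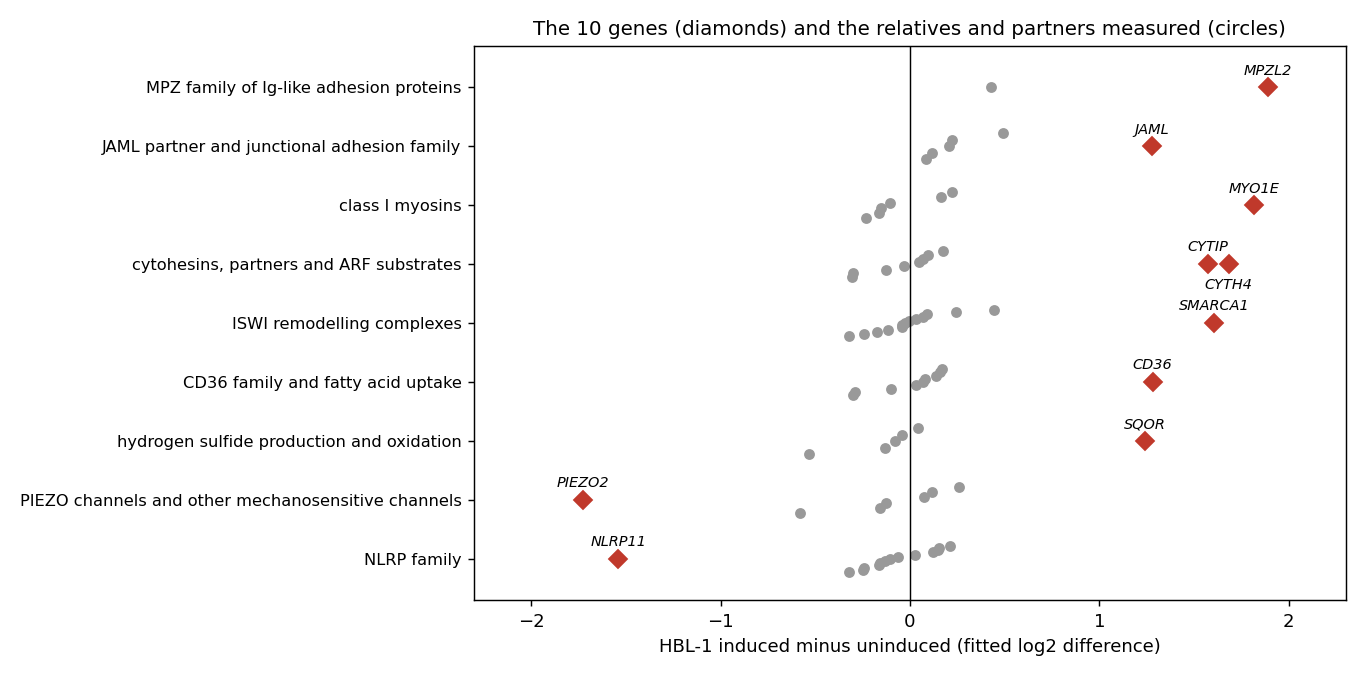
Fitted log2 difference between induced and uninduced HBL-1 arrays (horizontal axis) for the 10 genes (diamonds) and their measured relatives and partners (circles), by list. The 66 circles lie within 0.58 of 0, whereas the diamonds, chosen for this difference, lie at 1.24 or more, or at -1.54 or less.

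JAML and MPZL2 lie on chromosome 11 with MPZL3 between them, and MYO1E and SQOR share chromosome 15. In gene order, 19 other genes among the nearest 2 named ones on either side of a member were measured. Of these limma called 0 in HBL-1, with 2 at an unadjusted p under 0.05 (again beside 0.608% and 9.81% of all genes), MPZL3 and SEMA3C, the neighbour of CD36 that encodes a semaphorin (0.40, adjusted p = 0.359). CD3E and CD3D, which follow MPZL2 and encode chains of the T-cell receptor complex, differed by -0.10 and -0.06. RAC2 and MFNG, the neighbours of CYTH4, differed by -0.03 and 0.23. PIEZO2 had no measured gene among its 4 neighbours. SEMA3C, like CD36, was lower in uninduced U-H01 than in HBL-1, with a difference of -3.98.

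Over the 12 arrays, PLD4, a lysosomal nuclease gene, had the most similar pattern to 4 of the genes, with Pearson r of 0.989 for SMARCA1, 0.985 for CYTH4, 0.984 for MYO1E and 0.967 for MPZL2. PLD4 was 7.40 ± 0.11 without and 8.43 ± 0.14 with induction in HBL-1 (SD, n = 2 each), and 6.35 and 6.49 in the 2 U-H01 groups. CD36 was most like ZNF804A (0.996), JAML like SEMA3A (0.984), CYTIP like CELF2 (0.984), PIEZO2 like PFKFB2 (0.984) and NLRP11 like the early response gene EGR1 (0.964). SQOR had no close match, its highest being CD24 at 0.726. Among the 10 genes CYTH4 and SMARCA1 were most alike (0.996), and CYTIP and PIEZO2 most opposed (-0.981). All these values are over 12 arrays that fall into 3 clusters and are given as a description.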

How the data were processed

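RNA of 12 samples was measured on single-colour arrays with biotin label. The authors deposited log2 expression values per probe set, for which the submitters' processing notes name RMA and Partek. The sources used here give no versions. RMA normalizes arrays to like distributions, which can hide a shift of all genes. Of 33297 probe sets, 19460 carry 1 gene symbol in the platform annotation, 1754 several and 12083 none. Each gene was represented by its probe set of highest mean over 12 arrays, giving 18417 genes, of which 18304 matched the gene table of GRCh38.p14 by identifier. Deposited values run from 2.07 to 14.3.

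The model, fitted in limma 3.58.1 (R 4.3.3), held population, time point within line and induction within line, with 7 terms and 5 residual degrees of freedom. The gap between B1 and B2 used 8 terms. Tests were two-sided, with Benjamini-Hochberg adjustment over all genes and a threshold of 0.05. Errors of differences are SE of the fit over both lines, so those of HBL-1 differences draw on U-H01 arrays too. The spread is shared with the HBL-1 contrast that chose the members, so low spread may favour their calls elsewhere. The labels do not say that arrays of a group are separate cultures, so p-values measure spread between arrays, which may be technical. No 2 arrays were identical (0 pairs).

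Uninduced and induced arrays that share population and time point are paired, since the labels' protocols describe splitting each transduced population between both treatments. Deviations of paired arrays from group means correlated at 0.14 and -0.03 in B1, 0.10 and 0.03 in B2 and 0.10 in HBL-1. A fit with the pairs as a block was an alternative. Others were trend and robust options, only the compared arrays, median centring, repeated quantile normalization, genes above the median level, all probe sets, the mean of a gene's probe sets, and leaving out each array. The model was tested on simulated data. Members and lists were chosen with earlier results of these data known. Named genes are the members, the 5 NF-kB subunits, up to 4 relatives per list by smallest p, the nearest 2 named neighbours on either side, and the most similar genes by Pearson r among 3951 with an SD of 0.5 or more. Promoter sequences are from RefSeq. Plots used matplotlib 3.10.9 (Python 3.11.15).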

Additional observations from a re-analysis of the deposited data

Results flagged for a closer look

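Within groups of 4 arrays, 20 sets of levels were checked for an array far from the others, and 2 stood out, where chance gives about 1 in 20. MPZL2 on uninduced U-H01 replicate 1 was 4.47 against 4.27 to 4.28 on the other 3 arrays, a gap of 0.936 of the range of the group. MYO1E on the same array was 4.69, the lowest, with a gap of 0.845 of the range. JAML went opposite ways in the lines. It was lower in all 4 U-H01 pairs, with a fitted difference of -0.44, though the pair of B2 at time point 2 gave only -0.07. It was higher in both HBL-1 pairs. Its labelled induced U-H01 levels lay near the lower quartile of the arrays, so background may limit the U-H01 difference. The difference between lines was not tested, because the HBL-1 contrast chose the gene.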

How the results depend on the processing

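Under the replicate block the counts of members called were 5 between the U-H01 groups, 10 and 10 against HBL-1, and 0 for both other comparisons, and the pairing changed no call. Restricting the test to genes above the median level left 3 members (CYTIP, SQOR and PIEZO2), of which 2 passed between the U-H01 groups, 3 and 3 against HBL-1, and 3 had an HBL-1 difference over 1 in size, as construction dictates. With 1 array left out, members called ranged from 4 to 5 between the U-H01 groups, from 10 to 10 for uninduced U-H01 and from 9 to 10 for labelled induced U-H01 against HBL-1, from 0 to 0 between time points and from 0 to 1 between B1 and B2, while the 10 of 10 with an HBL-1 difference over 1 in size were fixed by the choice of genes. MYO1E in U-H01 also lost its call with all probe sets (adjusted p = 0.0544) and repeated quantile normalization (0.0715). It lost it too with only U-H01 arrays (0.0503), the fit that dropping an HBL-1 array repeats. No called member reversed under these alternatives. Uncalled differences changed sign in 8 fits between time points, 16 between populations and 8 between the U-H01 groups. Without 1 HBL-1 array the difference is that of the other time point, which moved 5 members (MPZL2, CYTH4, CYTIP, SMARCA1 and CD36) by more than 1 residual SD, MPZL2 between 1.33 and 2.45. Over all genes, calls for HBL-1 induction numbered 112, but 945 with HBL-1 fitted alone (1 residual degree of freedom), 58 with all probe sets, and 15 or 8 without 1 array of HBL-1 replicate 1 or 2. For the gap between populations the 112 became 222 with trend and robust options, 44 with U-H01 alone and 3 with all probe sets. With HBL-1 alone 103 genes were called between time points. Levels near background limit what can be seen in U-H01.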

Other observations

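Of the 66 relatives and partners, 17 were higher and 18 lower in uninduced U-H01 than in HBL-1, while with the label 14 were above and 21 below HBL-1, beside 47.5% and 42.7% of all genes called. These comparisons share the HBL-1 arrays. NLRP2, a relative of NLRP11, was 9.31 ± 0.06 and 8.99 ± 0.09 (SD, n = 2) on uninduced and induced HBL-1 arrays and 4.18 ± 0.17 and 4.10 ± 0.07 (SD, n = 4) in uninduced and labelled induced U-H01, -4.97 ± 0.09 for uninduced U-H01 against HBL-1 (adjusted p = 5.7e-13 from limma). PIEZO1 was higher than in HBL-1 in both U-H01 groups, by 2.51 ± 0.11 and 2.96 ± 0.11, where PIEZO2 was higher in the first and lower in the other. MPZL3 was lower in both, at -1.97 and -1.89, as MPZL2 was. SCARB1, of the CD36 family, lay on either side of HBL-1: it was lower in uninduced U-H01 (-0.97) and higher in the arrays labelled induced (1.29). The class I myosin gene MYO1D changed sides in the same way, from -1.79 to 1.41.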
